A study of Mus musculus with 6 samples.

Results

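The 10 receptor tyrosine kinase genes Fgfr1, Fgfr2, Fgfr3, Fgfr4, Met, Egfr, Erbb2, Erbb3, Igf1r and Insr were chosen by name, out of 52550 genes listed, as receptors that epithelial cells of the liver are known to carry. All 10 were found in the table and all 10 passed the filter of a mean of at least 1 TPM (the read count of a gene corrected for exon length and scaled to the same total in each library), as did 22452 genes in all. The RNA came from liver cells of Sox9-GFP transgenic embryos that had been sorted for GFP, to follow gene expression while bile ducts form. GFP in this line reports Sox9, a transcription factor gene of the biliary lineage. Each stage, E16.5 and E18.5, had 3 libraries named by the letters A to C. The sample labels give these stages as embryonic days 16 and 18. All embryos were of the CD-1 strain, carried the Sox9-GFP transgene and were untreated, so the stages differ in age alone as far as the labels say. Each library came from a pool of 15 livers that had first been depleted of blood lineages. The labels do not say whether the libraries of a stage came from separate litters, so the p-values measure the spread between these pools, which may be technical. The reads recovered from the TPM numbered 13093937 to 26206374 per library.

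Receptor tyrosine kinases are membrane proteins that work in pairs. When a ligand binds they phosphorylate one another and pass the signal through docking proteins to the Ras-MAPK and PI3K-Akt cascades. In the liver the HGF receptor Met and the EGF receptor drive growth and migration of hepatoblasts and their progeny, FGF receptors take part in specifying the liver and, with Fgfr4, in the control of bile acid synthesis, and the insulin and IGF receptors couple growth to nutrients. Hepatoblasts are the common precursors of hepatocytes and of cholangiocytes, the cells that line bile ducts.

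The cells carried both sides of this lineage. The summed level of 12 cholangiocyte marker genes was 981 to 2965 TPM at E16.5 and 8821 to 14880 TPM at E18.5. Of the 12, 10 rose, beside 26% of all genes tested. The summed level of 12 hepatoblast markers, led by the albumin gene Alb, was 181760 to 231191 TPM at E16.5 and 43477 to 105681 TPM at E18.5, so hepatoblast transcripts were the more abundant in every library although the labels call the cells cholangiocytes. The values as a whole were shifted between stages. The median log2 fold change of all genes tested was 0.42, and 83.3% of the 7000 genes past an adjusted p of 0.05 in limma were higher at E18.5. TPM share a fixed total in each library, and the part of the hepatoblast transcripts in this shift was not tested. With median-of-ratios scaling, which sets the typical gene to no change, the median was 0.011 and 38.1% of the calls were higher. Each receptor is therefore given both as deposited and relative to the median gene. In sorted pools, fewer cells of a type and less RNA per cell cannot be told apart.

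The sequence around an annotated start differed between these receptors. RefSeq promoter sequences (GRCm38.p6, from 250 bases before to 50 bases after the start, written 5′ to 3′ on the strand of the gene) were matched by symbol for 7 of the 10 receptors, with a pair of starts for Fgfr3, and none was matched for Fgfr1, Erbb3 and Insr. Printed below are the upstream start of Fgfr3, the receptor with the largest rise, at chr5:33721474-33721773 (plus strand), that of Met, whose change did not pass the test, at chr6:17463707-17464006 (plus strand), and that of Fgfr2, which had the lowest GC content of the set, at chr7:130266759-130267058 (minus strand). Capitals mark GC boxes, searched as GGGCGG or CCGCCC.
Fgfr3: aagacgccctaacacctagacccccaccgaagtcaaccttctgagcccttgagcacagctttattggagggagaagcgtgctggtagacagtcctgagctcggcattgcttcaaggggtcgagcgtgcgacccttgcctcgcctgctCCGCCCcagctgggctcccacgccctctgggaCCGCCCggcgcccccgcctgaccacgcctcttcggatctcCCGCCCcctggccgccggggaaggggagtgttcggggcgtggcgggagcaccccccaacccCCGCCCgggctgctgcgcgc
Met: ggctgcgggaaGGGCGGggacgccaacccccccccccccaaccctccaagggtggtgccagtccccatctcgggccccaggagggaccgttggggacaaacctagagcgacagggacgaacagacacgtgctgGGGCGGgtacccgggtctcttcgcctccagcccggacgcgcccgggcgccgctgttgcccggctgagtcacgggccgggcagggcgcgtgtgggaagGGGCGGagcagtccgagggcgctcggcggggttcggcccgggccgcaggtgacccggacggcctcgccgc
Fgfr2: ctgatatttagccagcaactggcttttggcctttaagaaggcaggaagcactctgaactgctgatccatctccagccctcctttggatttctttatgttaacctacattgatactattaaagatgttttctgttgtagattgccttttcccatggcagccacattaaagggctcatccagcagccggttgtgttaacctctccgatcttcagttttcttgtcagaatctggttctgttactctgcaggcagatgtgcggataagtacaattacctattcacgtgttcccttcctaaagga

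The printed stretch of Fgfr3 had a GC content of 69.7% with 4 GC boxes, and that of Met had 75.7% with 3. The Fgfr2 stretch had 43.7% and none of these boxes. That stretch lies inside the annotated Fgfr2 gene, which on this minus strand begins at 133123350. Which start of Fgfr2 these cells used was not tested. The median GC content of all 32851 RefSeq promoters of this length was 52.7%, and 35.7% of them hold at least 1 GC box. Of the others, Igf1r had 76.0%, Erbb2 66.0%, Fgfr4 65.3% and Egfr 62.3%. A TATA box (TATAAA, either strand) was in none of the 8 stretches, against 13.6% of all promoters, and a CCAAT box (CCAAT or ATTGG) was in the printed Fgfr3 stretch and that of Erbb2, against 37.4%. High GC content was found for Fgfr3 and Igf1r, which rose, and for Met, which did not pass the test, while Fgfr2 rose with a low one. A link between GC content and the stage difference was not tested.

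Of the 10 receptors, 8 were higher at E18.5 (limma on log2(TPM + 1), Benjamini-Hochberg adjusted p under 0.05), where 26% of all genes tested rose. None was lower, at that threshold, at an unadjusted p under 0.05 or by voom on recovered reads, where 5.22% of all genes fell at the adjusted threshold. Met and Insr did not pass the test. The ranges of the stages did not overlap for 9 receptors, the exception being Insr, while 45% of all genes had every E18.5 library above every E16.5 library. The median log2 fold change of the 10 receptors was 1.26 beside 0.42 for all genes, and 8 receptors lay above the median gene. With median-of-ratios scaling 5 receptors rose, the 4 FGF receptors and Igf1r, where 6.44% of all genes rose. Without E18.5 replicate A the calls over all genes went from 7000 to 1148, and those among the receptors from 8 to 2, Fgfr2 and Igf1r. An exact permutation test of a single gene cannot go below p = 0.1 with 3 libraries against 3.

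**Figure D1:**
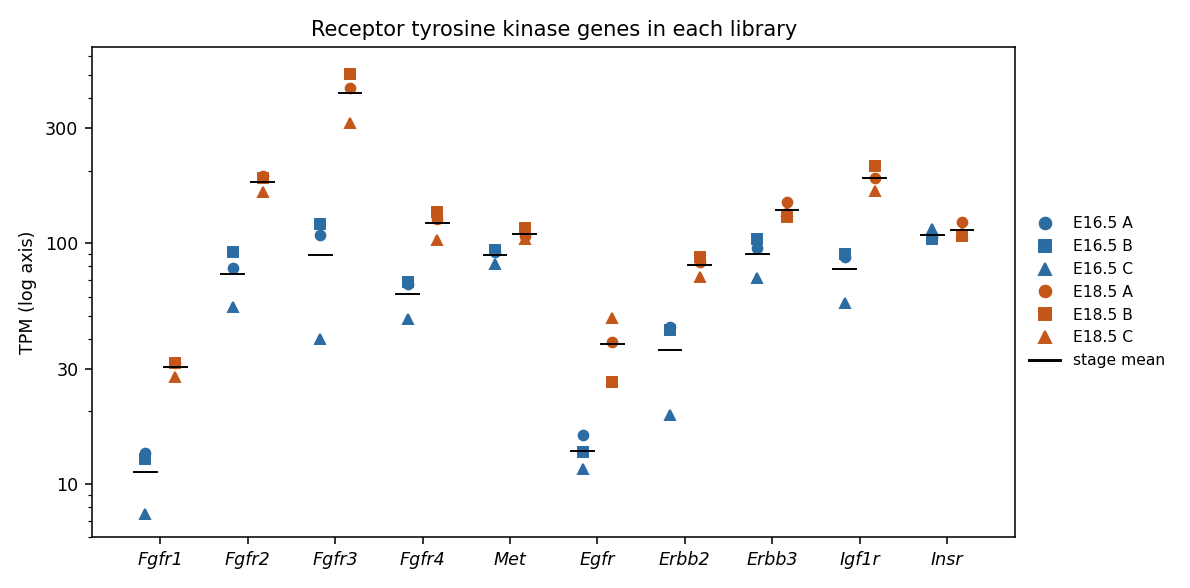
TPM of the 10 receptor genes (log axis) in the 3 libraries of E16.5 (blue) and the 3 of E18.5 (orange), with the mean of each stage as a bar. E16.5 replicate C has the lowest value of all 6 libraries for 9 of the 10 receptors, and the stages overlap for Insr only.

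FGF receptors bind fibroblast growth factors together with heparan sulphate or a Klotho protein. All 4 rose, and together they went from 268, 294 and 149.6 TPM at E16.5 to 790.2, 859.8 and 609.6 TPM at E18.5, in the order of replicates A to C that is kept throughout.

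Fgfr3 (ENSMUSG00000054252.17, chromosome 5, 33721674 to 33737068, plus strand) showed the largest rise of the 10. It stood at 108, 121 and 39.8 TPM in the E16.5 libraries and at 442, 506 and 315 TPM in the E18.5 libraries. Every E18.5 value was more than any E16.5 value, although the E16.5 libraries alone spanned a 3.03-fold range because replicate C was low. The mean went from 89.5 ± 43.5 to 421 ± 97.3 TPM (SD, n = 3 per stage), a 4.70-fold rise of means and a log2 fold change of 2.34 (SE 0.42, limma adjusted p = 0.0132), which is 1.93 above the median gene. Only 115 genes, 0.512% of those tested, had a log2 fold change as large as that of Fgfr3. In the annotation 13.9% of the exon length of Fgfr3 overlaps G630022F23Rik on the opposite strand, and whether the counting used strand is not given in the sources used here.

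Fgfr2 (ENSMUSG00000030849.18, chromosome 7, 130162451 to 133123350, minus strand) is the receptor whose epithelial splice form answers FGF7 and FGF10 from mesenchyme. Values per gene do not separate its splice forms, and 3.04% of its exon length overlaps Ctbp2 on the same strand. It was at 78.5, 91.7 and 54.1 TPM at E16.5 and at 190.0, 187 and 163 TPM at E18.5. The groups were well apart, with the E18.5 libraries within a 1.16-fold range. The log2 fold change was 1.29 (SE 0.20, limma adjusted p = 0.0105), which is 0.87 above the median gene, and the call was kept under all 16 alternative settings.

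Fgfr4 (ENSMUSG00000005320.9, chromosome 13, 55152640 to 55168759, plus strand) is the FGF receptor of hepatocytes, which with beta-Klotho (Klb) receives the gut hormone FGF15. Its TPM were 67.9, 68.8 and 48.2 at E16.5 and 126, 135 and 103 at E18.5, again without overlap. The log2 fold change of 0.98 (SE 0.18, limma adjusted p = 0.0135) was 0.56 above the median gene.

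Fgfr1 (ENSMUSG00000031565.18, chromosome 8, 25513654 to 25575718, plus strand), the FGF receptor typical of mesenchyme, had the lowest mean of the 10 at both stages. Its values were 13.4, 12.7 and 7.47 TPM at E16.5 and 31.8, 31.9 and 27.9 TPM at E18.5. The stages were apart, and the log2 fold change was 1.41 (SE 0.22, limma adjusted p = 0.0110), which is 0.99 above the median gene. A summed level of 12 mesenchyme markers stood at 124 to 286 TPM at E16.5 and 280 to 773 TPM at E18.5. Of the 11 tested 4 were higher, beside 26% of all genes. The part of mesenchyme cells in the rise of Fgfr1 was not tested.

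As a share of the summed TPM of the 4 FGF receptors, a ratio that no scaling between libraries can move, Fgfr3 gained on the others. It took 40.4%, 41.1% and 26.6% at E16.5 and 56.0%, 58.9% and 51.7% at E18.5. Even the highest E16.5 share was below the lowest E18.5 share (exact permutation test, two-sided, p = 0.1, the smallest possible, and 0.15 after Benjamini-Hochberg adjustment over 9 ratios). The share of Fgfr4 went from 27.0% ± 4.64 to 16.2% ± 0.669 and that of Fgfr2 from 32.2% ± 3.53 to 24.2% ± 2.53 (SD, n = 3), each without overlap and with the same exact p of 0.1. The share of Fgfr1 was 4.77% ± 0.391 and 4.10% ± 0.438, with overlapping libraries (exact permutation p = 0.2). Fgfr2 and Fgfr4 thus had more TPM at E18.5 but a smaller part of the family. None of these shares passed an adjusted p of 0.05, which 3 libraries per stage cannot reach.

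**Figure D2:**
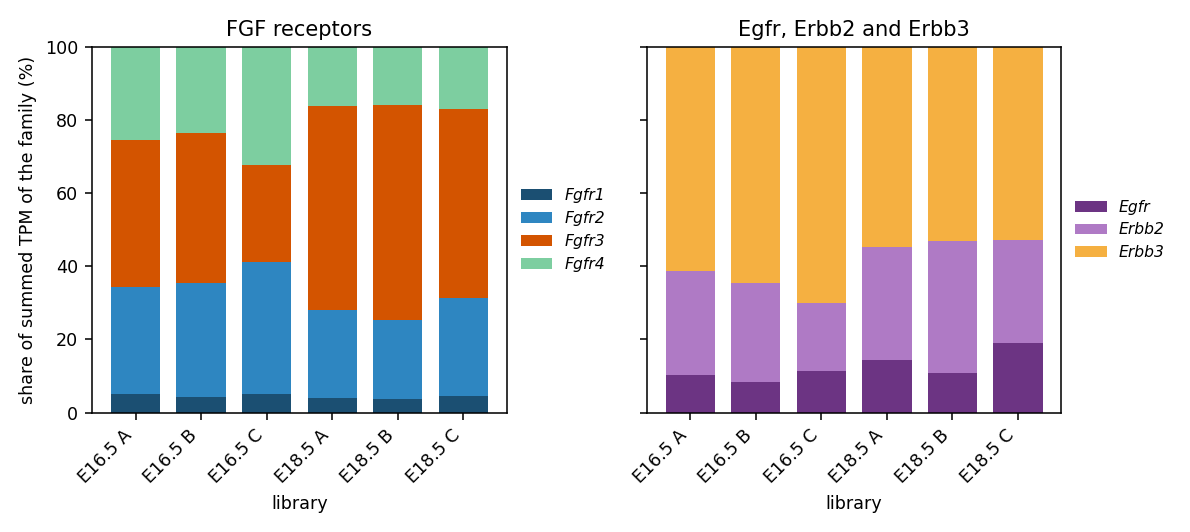
Share (%) of each receptor in the summed TPM of its family in each library, for the 4 FGF receptors (left) and for Egfr, Erbb2 and Erbb3 (right). Fgfr3 takes 51.7% to 58.9% of the FGF receptor total in the E18.5 libraries and 26.6% to 41.1% in the E16.5 libraries, and Erbb3 takes the largest part of its family in every library.

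Met (ENSMUSG00000009376.15, chromosome 6, 17463800 to 17573980, plus strand) encodes the receptor of hepatocyte growth factor. It was at 91.5, 93.3 and 82.1 TPM at E16.5 and at 107, 115 and 104 TPM at E18.5. The libraries of the stages did not overlap, but the gap between them was small. The log2 fold change was 0.29 (SE 0.11, 95% interval 0.036 to 0.54, limma adjusted p = 0.0761), which is 0.13 below the median gene. The direction rests on the scaling, since the log2 fold change was -0.18 with median-of-ratios scaling.

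The EGF receptor family works in pairs. Egfr binds EGF, TGF-alpha and HB-EGF, Erbb3 binds neuregulins but has a weak kinase, and Erbb2 binds no ligand and serves as partner. All 3 rose as deposited, by unequal amounts.

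Egfr (ENSMUSG00000020122.16, chromosome 11, 16752203 to 16918158, plus strand) was at 16.0, 13.6 and 11.6 TPM at E16.5 and at 38.8, 26.5 and 49.0 TPM at E18.5. The E18.5 libraries were all higher yet spanned a 1.85-fold range, the widest of the 10 receptors at that stage, with replicate B lowest. The log2 fold change was 1.38 (SE 0.24, limma adjusted p = 0.0126), which is 0.96 above the median gene. With median-of-ratios scaling it was 0.94 (adjusted p = 0.0555).

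Erbb2 (ENSMUSG00000062312.5, chromosome 11, 98412470 to 98437716, plus strand) was at 44.9, 43.5 and 19.4 TPM at E16.5 and at 83.7, 87.8 and 72.5 TPM at E18.5. Replicate C of E16.5 was again far below its companions. The log2 fold change was 1.24 (SE 0.31, limma adjusted p = 0.0262), which is 0.83 above the median gene, and the call was lost in 5 of 16 alternative settings, among them median-of-ratios scaling (0.79, adjusted p = 0.0786).

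Erbb3 (ENSMUSG00000018166.8, chromosome 10, 128567523 to 128589652, minus strand) was the most abundant of its family in every library, at 95.9, 104 and 71.7 TPM at E16.5 and 148, 129 and 136 TPM at E18.5. Its rise was the smallest of the 8 called, with a log2 fold change of 0.61 (SE 0.16, limma adjusted p = 0.0281), only 0.20 above the median gene. The call was lost in 8 of 16 alternative settings, and with median-of-ratios scaling the value was 0.15 (adjusted p = 0.451). As a share of Egfr, Erbb2 and Erbb3 together, Erbb3 went from 65.2% ± 4.40 to 53.5% ± 1.03 without overlap (exact permutation p = 0.1, 0.15 adjusted). The shares of Egfr (9.97% ± 1.42 and 14.8% ± 4.07) and Erbb2 (24.8% ± 5.24 and 31.7% ± 4.03) overlapped between stages (exact permutation p = 0.2 each, n = 3). The fourth member, Erbb4, is described with the related receptors.

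Igf1r and Insr encode close relatives, the first a receptor of both insulin-like growth factors and the second the insulin receptor. Igf1r (ENSMUSG00000005533.10, chromosome 7, 67952827 to 68233668, plus strand) was at 87.4, 89.8 and 56.6 TPM at E16.5 and 187, 209 and 165 TPM at E18.5. The stages were far apart, with a log2 fold change of 1.28 (SE 0.20, limma adjusted p = 0.0106), which is 0.86 above the median gene, and the call was kept under all 16 alternative settings. Insr (ENSMUSG00000005534.10, chromosome 8, 3122061 to 3279617, minus strand) was at 106, 104 and 115 TPM at E16.5 and 122, 107 and 110.4 TPM at E18.5. Here the stages overlapped, and E16.5 replicate C, lowest for the other 9 receptors, was the highest of its stage. The log2 fold change of Insr was 0.057 (SE 0.11, 95% interval -0.19 to 0.31, limma adjusted p = 0.692), which is 0.36 below the median gene. With median-of-ratios scaling it was -0.41 (adjusted p = 0.107). The log2 ratio of Igf1r to Insr within a library was -0.28, -0.22 and -1.02 at E16.5 and 0.61, 0.97 and 0.58 at E18.5. Insr was thus the more abundant of the pair in every E16.5 library and Igf1r in every E18.5 library (exact permutation p = 0.1, 0.15 adjusted over 9 ratios). The log2 ratio of Met to Egfr went the other way about, from 2.71 ± 0.168 to 1.55 ± 0.521 (SD, n = 3), also without overlap (exact permutation p = 0.1).

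**Figure D3:**
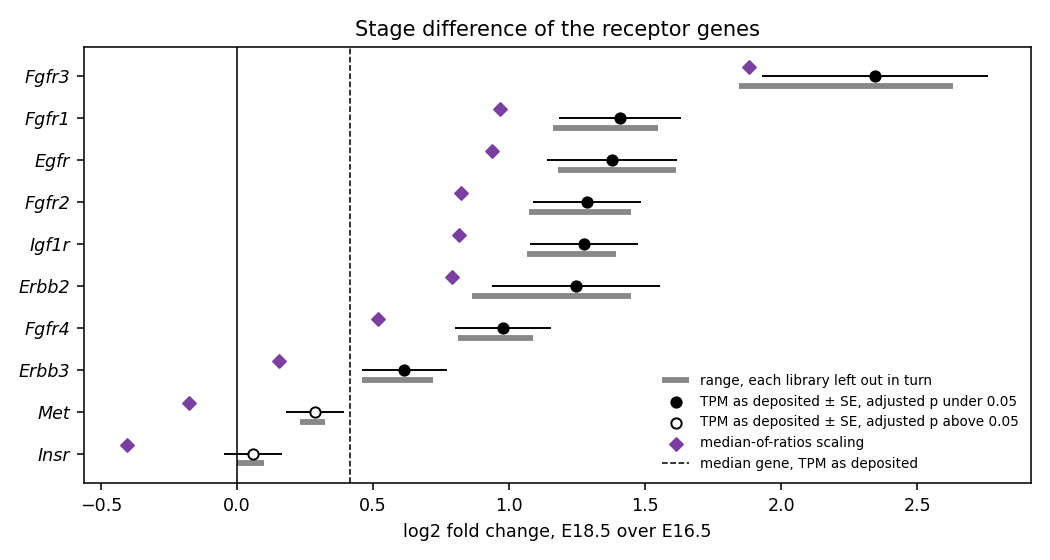
Log2 fold change (E18.5 over E16.5) of each receptor gene as deposited (circles, bars ± SE, filled where the limma adjusted p is under 0.05), its range when each library is left out in turn (grey bars) and its value with median-of-ratios scaling (diamonds). The dashed line is the median of all genes tested, 0.42, with Met and Insr to its left, and their diamonds lie below 0.

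TPM are corrected for length, so levels can be ordered between receptors. At E16.5 the order of mean TPM was Insr, Erbb3, Fgfr3, Met, Igf1r, Fgfr2, Fgfr4, Erbb2, Egfr and Fgfr1. Between neighbours in this order the libraries were apart for Insr over Erbb3, Fgfr4 over Erbb2 and Erbb2 over Egfr, and overlapped for the other 6 pairs. Within libraries, where both receptors of a pair were measured together, Met was above Igf1r, Fgfr2 above Fgfr4 and Egfr above Fgfr1 in all 3, although their ranges overlapped. The order of Erbb3, Fgfr3 and Met, and of Igf1r and Fgfr2, changed between libraries. At E18.5 the order was Fgfr3, Igf1r, Fgfr2, Erbb3, Fgfr4, Insr, Met, Erbb2, Egfr and Fgfr1. Fgfr3 now stood above Igf1r in every library, by 2.22-fold on the geometric mean. The libraries were also apart for Fgfr2 over Erbb3, Met over Erbb2 and Erbb2 over Egfr, and overlapped for the other 5 pairs, each of which kept its order in 2 of the 3 libraries. The lowest 3 receptors kept their places at both stages. Of all 10, 588 to 21652 reads lay behind a value, which gives a 95% interval of at most 8.42% to either side for counting error alone.

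E16.5 replicate C, lowest of 6 for 9 receptors, was also the library with the least of the biliary markers. Its Sox9 was at 69.5 TPM against 157 and 186 TPM in E16.5 replicates A and B and 353 to 466 TPM at E18.5. Receptor levels were therefore also set against Sox9 in the same library, a measure chosen after these values were seen. On that scale 9 of the 10 receptors went down and Fgfr3 alone went up. The ratio of Fgfr3 to Sox9 was 0.687, 0.648 and 0.573 at E16.5 and 1.07, 1.09 and 0.893 at E18.5, a log2 change of 0.67. Every E18.5 library lay above every E16.5 library for Fgfr3, as for 1.18% of all genes. For 7 receptors every E18.5 library lay below every E16.5 library, as for 67% of all genes, led by Insr (log2 change -1.63), Met (-1.40) and Erbb3 (-1.07). The ratios of Fgfr4 (-0.70), Erbb2 (-0.42), Igf1r (-0.40) and Fgfr2 (-0.39) fell by less, and those of Fgfr1 (-0.20) and Egfr (-0.25) overlapped between stages. Against the geometric mean of the 12 cholangiocyte markers the signs were the same, with Fgfr3 at 0.69. Sox9 itself rose by 1.68 on the log2 scale, so a ratio to it goes up only for a gene that rose by more. Of the 10 receptors, Fgfr3 alone, at 2.34, rose relative to both biliary measures. The related receptor Erbb4, which is not among the 10, rose by 2.33.

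**Figure D4:**
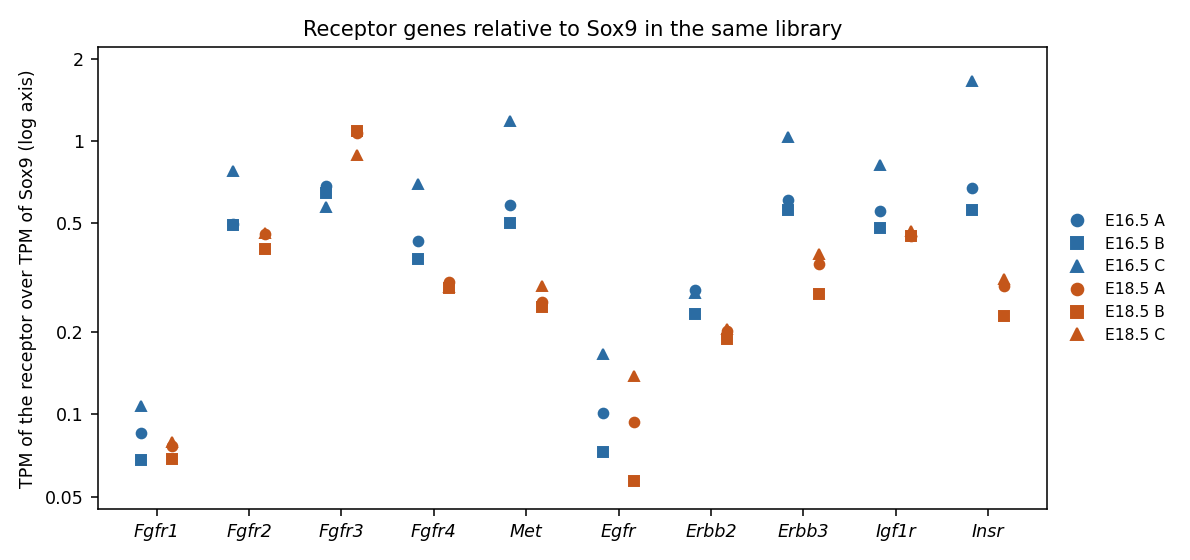
TPM of each receptor divided by the TPM of Sox9 in the same library (log axis) for E16.5 (blue) and E18.5 (orange). Fgfr3 is the receptor whose 3 E18.5 ratios, 0.893 to 1.09, all lie above its E16.5 ratios, and the points of E16.5 replicate C are the highest for 8 of the other 9.

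Other cell types in the sort gave the following values beside the receptors. Of all genes tested, 26% were called higher and 5.22% lower. Summed levels of 12 mesothelium markers were 29.8 to 78.7 TPM at E16.5 and 178 to 249 TPM at E18.5, with 10 of 11 tested higher. Megakaryocyte and platelet markers fell from 4352 to 12210 TPM down to 155 to 966 TPM, all 12 lower, and were highest in E16.5 replicate C. Endothelium markers (162 to 263 and 153 to 297 TPM, 2 of 12 higher), erythroid markers (260 to 330 and 120 to 622 TPM, 1 of 11 lower) and leukocyte markers (132 to 209 and 116 to 284 TPM, 4 of 11 higher and 1 lower) had overlapping sums. Pancreatic acinar markers ranged from 73.9 to 2576 TPM at E16.5, highest in replicate A, and from 9.27 to 52.9 TPM at E18.5, with 4 of 10 lower. Proliferation markers (493 to 635 and 444 to 698 TPM) had no call among 12 in limma, with 1 higher and 2 lower at an unadjusted p under 0.05. No marker was at 0 in every library. The part of these cells in the receptor values was not tested.

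Ligands of these receptors are largely made by neighbouring cells. Of 12 FGF ligand genes 7 were tested, of which Fgf1 and Fgf9 rose and Fgf10 fell, beside 26% and 5.22% of all genes. Fgf1, which binds every FGF receptor, was the most abundant, at 7.38, 8.19 and 8.06 TPM at E16.5 and 30.4, 23.5 and 34.6 TPM at E18.5 (log2 fold change 1.77, SE 0.18, limma adjusted p = 0.00669). Fgf10, a mesenchymal ligand of Fgfr2, fell by 1.10 on the log2 scale from a mean of 1.99 TPM (limma adjusted p = 0.0358), so it was near the filter throughout. Fgf9 rose from 0.967 to 3.58 TPM (limma adjusted p = 0.0350). Of 11 EGF and neuregulin ligands 6 were tested and Tgfa alone rose, from 13.6 to 20.7 TPM (log2 fold change 0.58, limma adjusted p = 0.0372). Hbegf, which reached the highest mean of this list, was at 10.5, 9.45 and 7.87 TPM and then at 26.6, 11.6 and 40.0 TPM (limma adjusted p = 0.0532). Its E18.5 libraries ranked as those of Egfr did, with B lowest and C highest. That order was not particular to this pair, since the hepatoblast markers Alb and Ahsg and the MAPK-induced Jun and Fos had it too. With median-of-ratios scaling Fgf1 was the only rise called among these ligands of FGF and EGF receptors, as it was without E18.5 replicate A. The calls of Fgf10 and Tgfa were lost whichever library was left out, and that of Fgf9 was kept only without E16.5 replicate B.

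Among the HGF family and its activating proteases the members moved apart. The gene of the ligand Hgf rose from 3.77 ± 1.78 to 11.1 ± 3.91 TPM (log2 fold change 1.37, limma adjusted p = 0.0305), and St14, the epithelial protease matriptase, from 23.2, 22.7 and 5.24 TPM to 55.2, 64.2 and 50.1 TPM (1.90, adjusted p = 0.0308). Hgfac, the HGF activator made by liver parenchyma, went from 148 ± 19.3 to 33.2 ± 18.2 TPM and so fell by 2.31 on the log2 scale (limma adjusted p = 0.0152). Mst1, the ligand of the Met relative Mst1r, fell by 1.31 on the log2 scale (limma adjusted p = 0.0133). Hpn, the protease hepsin, was at 145 and 130.4 TPM (limma adjusted p = 0.285). Of the insulin and IGF ligands, Igf1 rose from 6.45, 3.21 and 2.51 TPM to 17.6, 15.2 and 19.2 TPM (log2 fold change 1.93, limma adjusted p = 0.0105), while Igf2, the fetal growth factor, was at 2003 ± 181 and 1460.0 ± 367 TPM (limma adjusted p = 0.131). Ins1 and Ins2 were not called and were at 0 in some libraries. With median-of-ratios scaling, and without any 1 of the E18.5 libraries, Igf1 was still called and the rises of Hgf and St14 were not, nor was that of Hgf without E16.5 replicate B or C. The falls of Hgfac and Mst1 were joined by Hpn with median-of-ratios scaling, Hgfac alone was called lower without E18.5 replicate A, and Igf2 was called lower by voom on recovered reads. Hgfac and Mst1 fell beside the hepatoblast markers, of which 7 of 12 were lower (median of all 12, -1.24 on the log2 scale).

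Co-receptors and related receptors, 15 of 16 tested, gave 5 higher in limma, where 26% of all genes rose, and none lower. Their median log2 fold change was 0.36, beside 0.42 for all genes. At an unadjusted p under 0.05 there were 2 lower, and by voom on recovered reads also 2. Erbb4, the neuregulin receptor that completes the EGF receptor family, was at 7.95, 8.88 and 2.91 TPM at E16.5 and 34.6, 36.6 and 31.5 TPM at E18.5. Its libraries were far apart, with a log2 fold change of 2.33 (SE 0.35, limma adjusted p = 0.0101), beside 1.38 for Egfr, 1.24 for Erbb2 and 0.61 for Erbb3. Fgfrl1, an FGF receptor without a kinase domain, rose from 82.5 ± 25.8 to 251 ± 55.3 TPM (1.62, limma adjusted p = 0.0117). The heparan sulphate proteoglycan gene Gpc4 rose from 71.9 ± 31.4 to 204 ± 4.73 TPM (1.60, limma adjusted p = 0.0175). Gpc3, the fetal liver glypican and the most abundant of the list, was at 1109.7 and 848 TPM (limma adjusted p = 0.0675). Klb, the partner of Fgfr4, was at 61.6 and 65.7 TPM (log2 fold change 0.084, limma adjusted p = 0.666). Klb was named after its values were seen. With median-of-ratios scaling, where 6.44% of all genes rose, the list gave 4 higher, among them Erbb4, Fgfrl1 and Gpc4, and 3 lower. Without E18.5 replicate A only Erbb4 was called, and without replicate B 3 were.

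Inhibitors and feedback genes act on the receptors, their ligands or the cascades below them. Of 29 tested, 19 rose, where 26% of all genes rose, and none fell in limma, at the adjusted threshold or at an unadjusted p under 0.05, and the median of the 29 log2 fold changes was 0.68. Socs2, an inhibitor of growth hormone receptor signalling that is itself induced by growth hormone, was at 3.96, 4.47 and 1.42 TPM at E16.5 and 45.3, 48.9 and 38.6 TPM at E18.5 (log2 fold change 3.48, SE 0.32, limma adjusted p = 0.00573). The E18.5 values were all many times those of E16.5. Spry2, a feedback inhibitor of the Ras-MAPK cascade, rose from 21.3 ± 5.24 to 63.8 ± 3.77 TPM (1.57, limma adjusted p = 0.00822), and Spint1, an inhibitor of matriptase and the HGF activator, from 61.0, 67.3 and 20.8 TPM to 139, 142 and 108 TPM (1.52, limma adjusted p = 0.0338). Grb10, an adaptor that holds back the insulin and IGF receptors, was the most abundant at 754 and 736 TPM (limma adjusted p = 0.825). With median-of-ratios scaling, where 6.44% of all genes rose, 6 were higher, Socs2 and Spry2 among them, and 2 lower. The 19 became 5 without E18.5 replicate A and 9 without replicate B.

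Adaptors and docking proteins, 18 tested, gave 7 higher and 1 lower with a median of 0.36, beside 26% and 5.22% of all genes. Plcg1 (0.98, limma adjusted p = 0.0105), Gab1 (0.95, adjusted p = 0.0119) and Nck1 (0.71, adjusted p = 0.0228) had the largest rises, and the phosphatase gene Ptpn11 fell by 0.91 on the log2 scale (adjusted p = 0.0257). Ptpn11, which carries signals of most of these receptors to Ras, was the highest of the list at 235 ± 69.4 and 122 ± 17.8 TPM. Of 16 genes of the Ras, MAPK and PI3K-Akt cascades 5 rose and 2 fell, with a median of 0.29, and the 5 are near the share of all genes that rose. Mapk3 (0.92, limma adjusted p = 0.0200), Pik3ca (0.82, adjusted p = 0.0140) and Akt1 (0.75, adjusted p = 0.0241) rose most, while Pik3cb fell by 0.91 on the log2 scale (adjusted p = 0.0220). Both medians lay below the 0.42 of all genes, and both changed sign with median-of-ratios scaling, to -0.077 and -0.16. The calls also turned over there, where 6.44% of all genes rose and 38.1% of all calls were rises. They became 2 adaptors higher (Plcg1 and Gab1) and 3 lower, and 1 cascade gene higher (Pik3ca) and 5 lower. The adaptor rises became 1 without E18.5 replicate A, 2 without replicate B and 4 without E16.5 replicate C, and those of the cascades became 0, 1 and, without E16.5 replicate B, 3.

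Of transcripts that the MAPK cascade induces, 11 of 12 were tested and 2 rose, where 26% of all genes rose. None fell in limma, at the adjusted threshold or at an unadjusted p under 0.05. The median log2 fold change of the list was 0.65, beside 0.42 for all genes. The 2 were the Ets factor genes Etv5, at 20.4, 21.4 and 7.52 TPM and then 53.4, 61.6 and 43.7 TPM (1.74, SE 0.37, limma adjusted p = 0.0186), and Etv4, at 4.88, 5.53 and 2.54 TPM and then 11.6, 14.4 and 9.76 TPM (1.31, SE 0.28, limma adjusted p = 0.0188). Both are known to follow FGF receptor signalling, and both ranked the 6 libraries as Fgfr3 did, with B highest and C lowest in each stage. The biliary markers Sox9 and Epcam ranked them in the same way. Of the other tested genes of the list, Ccnd1 kept this order within each stage, and the rest were lowest in replicate B at E18.5. Among the feedback genes, Socs2 and Spint1 kept the order within each stage. At E18.5, however, Spry2 was highest in replicate C, and Dusp6 and Spry4 were lowest in replicate B. A link between Fgfr3 and these transcripts was not tested. Jun, an immediate-early gene and the most abundant of the list, varied within stages, at 365, 399 and 668 TPM and then 811, 348 and 856 TPM (limma adjusted p = 0.400). E18.5 replicate B was low for Jun, as it was for Hbegf and Egfr. Etv4 and Etv5 were also the 2 called with median-of-ratios scaling, where 6.44% of all genes rose. Without E18.5 replicate A none was called, and without replicate B the 2 called were Fosl1 and Ier3 and the median of the list was 1.12. Without E18.5 replicate C that median was 0.40.

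**Figure D5:**
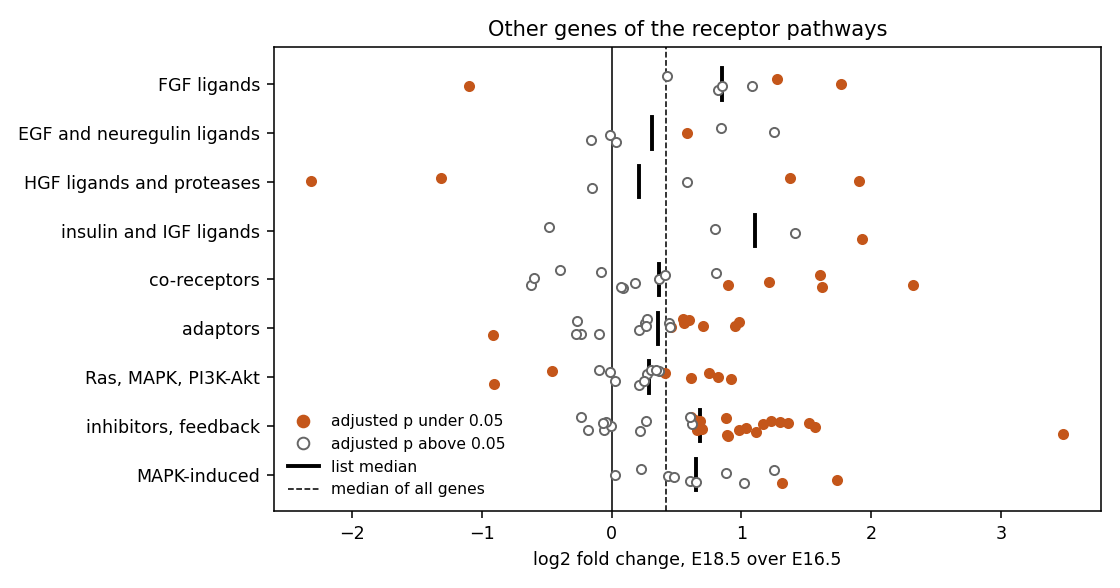
Log2 fold change (E18.5 over E16.5) of the tested genes of each pathway list, filled where the limma adjusted p is under 0.05, with the median of each list (black bar) and of all genes tested (dashed line, 0.42). In the inhibitor list, the longest, 19 of 29 points are filled, all to the right of 0, beside 26% of all genes, while the adaptor and kinase medians lie to the left of the dashed line.

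Over the 6 libraries, the genes whose centred log2 profile came nearest that of Fgfr3 among 11382 protein-coding genes were Dcdc2a (root mean square difference 0.0903), Bmf (0.0907) and Ddit4l (0.150). Dcdc2a, at 45.9, 61.3 and 19.0 TPM and then 198, 223 and 151 TPM, had the same order of libraries as Fgfr3. For Insr, the receptor with the smallest change, they were Elmsan1 (0.0248), Dap (0.0261) and Tbc1d30 (0.0456). Dap, at 146, 145 and 150.4 TPM and then 167, 144 and 149 TPM, was as level as Insr.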

How the data were processed

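The authors pooled embryonic livers (15 per pool), removed blood lineages magnetically, sorted GFP-positive cells and sequenced total RNA with a stranded kit. They checked reads with FastQC 0.11.7, trimmed them with Trimmomatic, aligned them to GRCm38 with HISAT2 2.1.0, counted them per gene with HTSeq-count 0.5.4p3 with the GENCODE vM15 annotation and turned the counts into TPM, the unit of the deposited table. The labels also name Bowtie, without a role.

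Symbols, positions and exon lengths came from GENCODE vM21, in which 52403 of 52550 identifiers were found without their version. To recover reads, TPM were multiplied by exon length and divided by the value of 1 read, and 100% of 180057 values above 0, from 49035 genes whose version was the same in both, came out whole within 0.01. They served for depth, for exact binomial intervals at 95% and for 1 alternative. The value of 3 reads, the floor for a gene listed at 0, was 0.0208 to 0.209 TPM for these genes.

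The test between stages was limma 3.58.1 (R 4.3.3, lmFit followed by eBayes with a trend, two-sided) on log2(TPM + 1). It took in the 22452 genes that averaged 1 TPM or more. Changes of low genes are understated on this scale. The fit was tested on simulated counts with 200 genes changed, up and down alike, and a fixed dispersion (spread between libraries) of 0.03. The real libraries had 7000 calls and a shift between stages, so the rates below need not hold for them. It recovered 89% of 4-fold and 27% of 2-fold changes there, so a gene that was not called may still have changed. It also called 22 unchanged genes, beside the 200 changed, among 20901 tested, so some calls may be false. In a run with no gene changed it made 0 calls. Ratios within a library were compared by exact two-sided permutation tests in Python 3.11.15 (scipy 1.17.1). The members and the gene lists were chosen with earlier results of these data known. Genes named from each list are the most abundant and up to 3 rises and 3 falls past the threshold by size, and for the receptors with the largest and smallest change the 3 nearest profiles among protein-coding genes that averaged 5 TPM or more. Replicate letters were checked for pairing over deviations from the stage means and did not pair the libraries. There were 16 alternative settings, which covered the pseudocount, filters, scaling, variance model, replicate block, each library left out in turn and limma voom on recovered reads. Spry3 and Ahsp were not matched by symbol. Protein sequences were not used here, and 1 gene that the naming rule picks is not reported.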

Additional observations from a re-analysis of the deposited data

How the results depend on the processing

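Across the 16 alternative settings the 8 receptors called higher kept a positive log2 fold change, and no receptor was called lower. Over all genes, the 7000 calls became 4282 without a filter on low values (43310 genes tested), 3795 with median-of-ratios scaling and 3796 with quantile normalization. With median-of-ratios scaling 5 receptors were called higher and not 8. Leaving out each library in turn gave 1148 to 5432 genes and 2 to 8 receptors called higher, the lowest of both without E18.5 replicate A. The sign turned for Met at -0.18 and Insr at -0.41 with median-of-ratios scaling, and for Insr at -0.14 with quantile normalization and -0.077 with voom on recovered reads, none of them past the threshold. The scalings differ in what they hold constant, and which is right for these pools was not tested. Fgfr2 and Igf1r kept their calls in all 16 settings. Fgfr1, Fgfr3 and Fgfr4 each lost it in 1 setting, Egfr in 2, Erbb2 in 5 and Erbb3 in 8, while Met gained one with TPM rescaled over protein-coding genes (0.38, limma adjusted p = 0.0351). The ratios within families kept their direction in every setting run. With the replicate letter as a block 7314 genes were called, 8 receptors among them, all higher, and the pairing was not borne out, since deviations of libraries with the same letter correlated at -0.042 (A), 0.081 (B) and 0.14 (C). Depth did not limit the receptors, which had at least 588 reads in each library, but 3 pools per stage held permutation tests at 0.1 or more.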
